A study of Disanthus cercidifolius subsp. longipes with 9 samples.

Results

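Leaves of Disanthus cercidifolius var. longipes, a deciduous shrub of the witch hazel family, were compared between an intermediate stage, F2 (3 libraries), and a young stage, F1 (3 libraries). These are 6 of the 9 libraries of the series, the others being of the mature stage F3, and the comparison covers all 24385 transcript clusters of the deposited table. The labels place F2 leaves on 23 July and F1 leaves, called young, on 20 July, all taken from branch tips and written under the name subsp. longipes. The study's methods instead place the samplings in successive spring months and call F2 leaves nearly mature, just at full area, and F1 leaves unfolded but not mature inside. All plants were untreated, rooted from cuttings and grown in a single nursery. The leaves came from a few trees with several branches of each. The methods do not say which tree gave which library, so a p-value here measures the spread between these libraries and no more. Each library is of leaf tissue not separated into cell types, so that fewer cells of a type and less RNA per cell cannot be told apart.

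A leaf grows first by cell division and then by expansion, in which expansins, xyloglucan endotransglucosylases and pectin-modifying enzymes loosen and rebuild the walls. Epidermal cells meanwhile coat the leaf with a cuticle of cutin and waxes, made from very long fatty acids that ketoacyl-CoA synthases elongate and that enzymes such as CER1 and the hydroxylase MAH1 turn into alkanes, alcohols and ketones. As expansion ends, chloroplasts complete their photosystems and antennae, photorespiration and nitrogen reassimilation run at a high rate, and the leaf changes from an importer to an exporter of sugar. These statements are general plant biology and no result of these data.

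A transcript cluster is a group of assembled transcripts, named here by its match to a protein of another species. Levels are in FPKM, fragments scaled for transcript length and library size. Fold changes are F2 over F1 on the log2 scale, with a standard error after ± derived from the fold and its test statistic. Where a stage was near 0 FPKM, the size of the fold is less certain than this error shows. Levels after ± carry the SD over the 3 libraries of a stage. Every adjusted p below is from edgeR's quasi-likelihood test with Benjamini-Hochberg adjustment over all clusters. A call required an adjusted p under 0.05 together with a change of at least 2-fold. Counts over the table were 9581197 to 14284676 per library in F2 leaves and 10353544 to 12253518 in F1 leaves. Libraries of a stage lay 50.8 to 58.4 apart in Euclidean distance of log2(FPKM + 1), and libraries of different stages 166.6 to 179.9 apart. Of all clusters, 9955 were called (40.8%), with 5361 higher in F2 leaves (22.0%) and 4594 lower (18.8%). Among the 14669 clusters with a Swiss-Prot match, from which most gene classes below are drawn, 18.8% were higher and 21.3% lower. These percentages are the background for each class. The authors had already selected the clusters for a difference between stages, so none of them is a share of the genes of the leaf. The balance of directions depended on scaling: RLE scaling, which moved the median fold over all clusters by -0.17 on the log2 scale, gave 4330 higher and 5316 lower, and DESeq2 gave 4529 higher and 5482 lower.

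Both stages read as green leaf. The most abundant cluster in each was a small subunit of Rubisco, the enzyme that fixes carbon dioxide (Cluster-28604.0), with 31536, 31265 and 29729 FPKM in F2 leaves, against 33870.0, 38388 and 31618 in F1 leaves. Each F2 library lay slightly below each F1 library, a difference under the fold threshold and not called (log2 fold change -0.12 ± 0.09, adjusted p = 0.248). The next, Cab21 of the light-harvesting antenna (Cluster-47164.9), was likewise abundant in both, with 13331 ± 816 FPKM in F2 leaves and 7406 ± 891 in F1 leaves. Named clusters below were picked by level, as the most abundant called members of a class in each direction, and had no overlap between the libraries of the stages unless another reason is given. Among all clusters, 64.4% had no such overlap. Several named clusters with a fold just above 2 kept their direction but missed that threshold with RLE scaling and with DESeq2: XTH28, BEL1-like 1, TGA1, LOX2-1 (Cluster-56010.5), glyceraldehyde-3-phosphate dehydrogenase B, the glycine decarboxylase P protein, germacrene D synthase, sugar carrier protein C, NPF7.3, ferredoxin-dependent glutamate synthase, cryptochrome-1 and hnRNP 1. Without F1 replicate 2, log2 fold changes were -0.93 to -0.99 for pectinesterase inhibitor 10, ribosomal protein P2, plastid ribosomal protein L29 and HYH, which were then not called, nor were cryptochrome-1, glutamate synthase and the glycine decarboxylase at 0.95 to 1.00.

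Gene classes of division and growth were mostly lower in F2 leaves. Of 21 clusters of cyclins and cyclin-dependent kinases, the engines of the cell cycle, 15 fell and 1 rose, with a median log2 fold change of -2.58. Their levels summed to 15.2 to 18.4 FPKM in F2 leaves, against 75.0 to 78.9 in F1 leaves. Cyclin-D3-3, a D-type cyclin that keeps leaf cells dividing in Arabidopsis (Cluster-19065.0), had 0.82, 0.69 and 0.84 FPKM in F2 leaves, against 19.1, 18.7 and 18.1 in F1 leaves (log2 fold change -4.54 ± 0.21, adjusted p = 4.18e-07). A further cyclin-D3-3 cluster (Cluster-36398.0) had 1.53 ± 0.39 FPKM in F2 leaves and 8.29 ± 0.494 in F1 leaves (log2 fold change -2.39 ± 0.20, adjusted p = 1.39e-05). The cyclin-dependent kinase that rose, CDC2 homolog A (Cluster-58621.1), was near the detection limit in both stages, with 0.6 ± 0.0265 FPKM in F2 leaves and 0.0933 ± 0.101 in F1 leaves (log2 fold change 2.79 ± 1.04, adjusted p = 0.0489). It lost its call when any library but F1 replicate 3 was left out, at log2 fold changes of 2.25 to 2.83. Core histones, which package newly copied DNA, fell in 20 of 33 clusters and rose in 0, with a median of -1.56. Histone H2B.1 (Cluster-34983.0) had 22.6, 22.8 and 25.1 FPKM in F2 leaves, against 130.4, 161 and 126 in F1 leaves (log2 fold change -2.52 ± 0.12, adjusted p = 5.01e-07). Histone H4 (Cluster-40131.0) followed with 50.5 ± 3.50 FPKM in F2 leaves and 155 ± 13.8 in F1 leaves (log2 fold change -1.57 ± 0.10, adjusted p = 2.49e-06).

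Kinesins, the motors that move along microtubules in spindles and division plates, fell in 12 of 55 clusters and rose in 2. The share that fell was close to the 21.3% lower among matched clusters. Under RLE scaling 18 of the 55 fell, and under DESeq2 17. KIN-14I (Cluster-35013.0) had 0.87 ± 0.215 FPKM in F2 leaves and 4.39 ± 0.416 in F1 leaves (log2 fold change -2.28 ± 0.22, adjusted p = 4.09e-05). KIN-14C (Cluster-35053.2) had 2.70 ± 0.248 FPKM in F2 leaves and 7.63 ± 0.263 in F1 leaves (log2 fold change -1.45 ± 0.27, adjusted p = 0.00214). A cluster of KIN-12C, a kinesin of the division plate (Cluster-3453.15), went the other way, with 3.89, 4.55 and 3.70 FPKM in F2 leaves, against 0 counts in every F1 library, at least 14.2-fold higher against a floor of 3 counts per library (adjusted p = 0.000194). Summed over the 13 clusters that share its number, this kinesin stood at 42.3 FPKM in F2 leaves and 17.5 in F1 leaves. In the KEGG pathway of DNA replication, 30 of 82 clusters fell and 15 rose. The leading members that fell carry only the uncharacterized protein name At4g28440, with 22.5 ± 0.57 FPKM in F2 leaves and 53.1 ± 5.84 in F1 leaves in Cluster-27559.0 (log2 fold change -1.21 ± 0.10, adjusted p = 1.04e-05). RPA70B, which holds single-stranded DNA open (Cluster-7742.26), rose, with 8.22 ± 0.472 FPKM in F2 leaves and 2.49 ± 0.983 in F1 leaves (log2 fold change 1.78 ± 0.28, adjusted p = 0.000787). Under RLE scaling 8 members of this pathway rose and 31 fell, and without F1 replicate 2, 7 rose and 24 fell.

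Among the wall-loosening expansins, 10 of 15 clusters fell and 1 rose, and the median log2 fold change was -1.73. Expansin-A1 (Cluster-47986.0) had 334, 334 and 329.8 FPKM in F2 leaves, against 1243, 1331 and 1237 in F1 leaves (log2 fold change -1.90 ± 0.06, adjusted p = 5.98e-08). Expansin-A8 (Cluster-46520.0) had 132, 118 and 116 FPKM in F2 leaves, against 548, 542 and 555 in F1 leaves (log2 fold change -2.13 ± 0.07, adjusted p = 5.44e-08). In both, each F2 library lay below each F1 library by more than 2-fold. The exception was expansin-A15 (Cluster-32055.0), with 5.23 ± 0.424 FPKM in F2 leaves and 0.913 ± 0.268 in F1 leaves (log2 fold change 2.55 ± 0.26, adjusted p = 5.58e-05). All expansins together summed to 486 to 506 FPKM in F2 leaves, against 1971 to 2053 in F1 leaves.

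Pectin-modifying enzymes showed a similar balance: 44 of 71 clusters fell and 3 rose. Pectin acetylesterase 8, which removes acetyl groups from pectin (Cluster-43860.0), had 74.2, 74.7 and 70.2 FPKM in F2 leaves, against 240.3, 257 and 237 in F1 leaves (log2 fold change -1.69 ± 0.09, adjusted p = 1.17e-06). Pectinesterase inhibitor 10 (Cluster-36861.0) had 81.5 ± 2.56 FPKM in F2 leaves and 169.5 ± 6.51 in F1 leaves (log2 fold change -1.01 ± 0.15, adjusted p = 0.000603). A polygalacturonase, which cuts pectin chains (Cluster-51880.4), rose, with 9.07 ± 0.929 FPKM in F2 leaves and 1.85 ± 0.408 in F1 leaves (log2 fold change 2.38 ± 0.29, adjusted p = 0.000172). The galacturonosyltransferases that build pectin fell in 9 of 20 clusters and rose in 1. GAUT4 (Cluster-53947.2) had 12.2 ± 0.52 FPKM in F2 leaves and 28.2 ± 1.92 in F1 leaves (log2 fold change -1.17 ± 0.15, adjusted p = 0.000212).

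Endoglucanases, which trim cellulose chains, fell in 7 of 12 clusters and rose in 1. Endoglucanase 6 (Cluster-53168.0) had 8.74, 8.72 and 7.92 FPKM in F2 leaves, against 201, 169.7 and 213 in F1 leaves (log2 fold change -4.31 ± 0.10, adjusted p = 1.96e-08). Fasciclin-like arabinogalactan proteins, cell surface glycoproteins, fell in 8 of 10 and rose in 0, led by FLA1 (Cluster-24779.0) with 16.5 ± 1.56 FPKM in F2 leaves and 95.9 ± 4.24 in F1 leaves (log2 fold change -2.50 ± 0.10, adjusted p = 2.47e-07). Xyloglucan endotransglucosylases, which cut and rejoin the glycan that ties cellulose fibrils, did not move one way, with 2 higher and 3 lower of 12. The abundant member XTH28 (Cluster-56395.1) rose, with 409, 424 and 442 FPKM in F2 leaves, against 215, 205 and 224 in F1 leaves (log2 fold change 1.03 ± 0.04, adjusted p = 2.23e-07). XTH30 (Cluster-31350.0) rose as well, with 61.6 ± 3.48 FPKM in F2 leaves and 22.6 ± 1.73 in F1 leaves (log2 fold change 1.50 ± 0.09, adjusted p = 2.66e-06). The leading members that fell, XTH8 (Cluster-38985.0) and XTH32 (Cluster-16464.0), were of low level, with 0.68 ± 0.329 FPKM in F2 leaves and 5.28 ± 0.973 in F1 leaves for XTH8 (log2 fold change -3.02 ± 0.36, adjusted p = 0.000138). All clusters of the class together summed to 1075.5 to 1107.4 FPKM in F2 leaves, against 1095.1 to 1122.3 in F1 leaves.

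Cellulose synthases and their relatives were mixed, with 15 higher and 10 lower of 60, a balance that turned to 9 and 14 under RLE scaling and to 10 and 11 without F1 replicate 2. A CSLG3 cluster (Cluster-48502.3) rose, with 63.0 ± 8.78 FPKM in F2 leaves and 20.7 ± 4.74 in F1 leaves (log2 fold change 1.67 ± 0.18, adjusted p = 6.74e-05), while a CSLE6 cluster (Cluster-35101.4) fell, with 25.6 ± 0.599 FPKM in F2 leaves and 95.2 ± 1.28 in F1 leaves (log2 fold change -1.83 ± 0.05, adjusted p = 2.87e-08). The polysaccharide acetyltransferases of the TBL family, which acetylate xylan and other wall glycans, were split in the same way, with 10 higher and 16 lower of 41. TBL43 (Cluster-57796.6) had 63.8, 58.8 and 61.3 FPKM in F2 leaves, against 9.01, 8.58 and 8.93 in F1 leaves (log2 fold change 2.85 ± 0.08, adjusted p = 3.59e-08). TBL39 (Cluster-43023.0) had 40.1, 39.7 and 38.1 FPKM in F2 leaves, against 167, 186 and 165 in F1 leaves (log2 fold change -2.08 ± 0.08, adjusted p = 1.1e-07). Members of this family thus moved in opposite directions by more than 4-fold each.

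**Figure D1:**
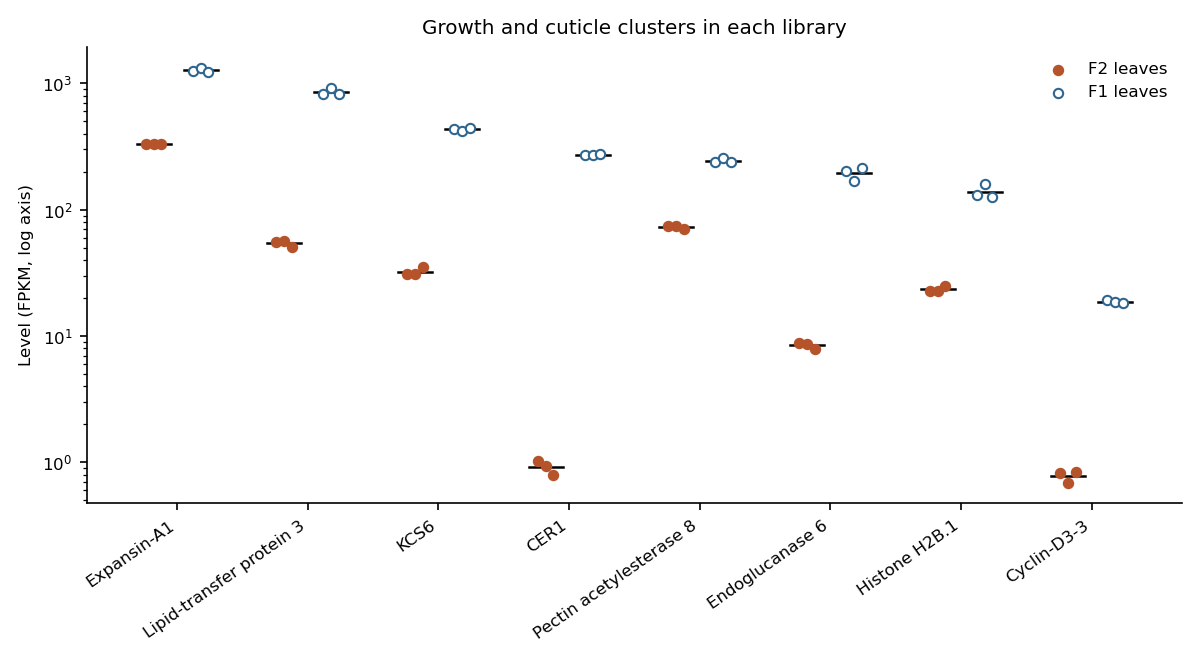
Level of 8 growth and cuticle clusters in each library, in FPKM on a log axis, with F2 leaves (filled) left of F1 leaves (open) for each cluster and the mean of 3 libraries as a bar. Each F2 library lies below each F1 library in all 8 clusters, from expansin-A1, the most abundant, to cyclin-D3-3.

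Among the KEGG pathways with at least 15 clusters, cuticle synthesis had the largest share of clusters lower in F2 leaves. In cutin, suberine and wax biosynthesis, 65 of 88 clusters fell (73.9%) and 6 rose, with a median log2 fold change of -2.51. With clusters of a number summed, 33 units fell and 3 rose. CER1, which makes wax alkanes from very long aldehydes (Cluster-48206.4), had 1.02, 0.94 and 0.8 FPKM in F2 leaves, against 271, 271 and 277 in F1 leaves (log2 fold change -8.18 ± 0.29, adjusted p = 9.89e-08). Over all 4 clusters of its number CER1 summed to 7.83 FPKM in F2 leaves and 289.6 in F1 leaves, so the decrease was not limited to 1 assembled form. The ketoacyl-CoA synthases that lengthen fatty acids for waxes fell in 13 of 20 clusters and rose in 0. KCS6 (Cluster-40181.2) had 30.9, 30.9 and 35.4 FPKM in F2 leaves, against 439, 423 and 444 in F1 leaves (log2 fold change -3.70 ± 0.09, adjusted p = 1.85e-08). KCS19 (Cluster-36072.0) had 131 ± 4.34 FPKM in F2 leaves and 451 ± 8.61 in F1 leaves (log2 fold change -1.74 ± 0.08, adjusted p = 3.79e-07).

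The alkane hydroxylase MAH1, which turns wax alkanes into secondary alcohols and ketones, has 25 clusters in the table, of which 21 fell and 1 rose. Many share a number, and with clusters of a number summed 9 units fell and 0 rose. The most abundant that fell (Cluster-33610.11) had 81.0 ± 0.866 FPKM in F2 leaves and 190.1 ± 4.30 in F1 leaves (log2 fold change -1.16 ± 0.08, adjusted p = 4.97e-06). The one that rose (Cluster-58065.1) had 59.4 ± 1.97 FPKM in F2 leaves and 8.25 ± 3.31 in F1 leaves (log2 fold change 2.90 ± 0.25, adjusted p = 1.84e-05), yet the 5 clusters of its number summed to 198 FPKM in F2 leaves and 259 in F1 leaves. Wax ester synthases, which join fatty alcohols to acids, fell in 13 of 15 and rose in 1, led by a WSD11 cluster (Cluster-57135.0) with 1.02, 0.94 and 0.78 FPKM in F2 leaves, against 74.6, 76.4 and 72.6 in F1 leaves (log2 fold change -6.29 ± 0.12, adjusted p = 7.36e-08). With clusters of a number summed, 5 units of these synthases fell and 1 rose. CER2, a helper of wax chain elongation that the table files under phenylpropanoids (Cluster-37602.0), had 51.6 ± 0.7 FPKM in F2 leaves and 252 ± 10.2 in F1 leaves (log2 fold change -2.22 ± 0.14, adjusted p = 3.15e-06).

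Proteins that carry or assemble surface lipids followed. Lipid-transfer proteins fell in 17 of 30 clusters and rose in 1, and summed to 6442 to 6609.8 FPKM in F2 leaves, against 11782 to 13360.0 in F1 leaves. Lipid-transfer protein 3 (Cluster-44124.0) had 55.9, 56.3 and 50.9 FPKM in F2 leaves, against 826, 918 and 819.7 in F1 leaves (log2 fold change -3.93 ± 0.10, adjusted p = 2.53e-08). GDSL lipases, a family that includes the enzymes that polymerise cutin, fell in 40 of 67 clusters and rose in 5. The GDSL lipase At2g04570 (Cluster-35907.0) had 7.13, 6.19 and 6.40 FPKM in F2 leaves, against 167, 172 and 168 in F1 leaves (log2 fold change -4.65 ± 0.14, adjusted p = 4.07e-08). At4g10955 of the same family (Cluster-36539.0) went the other way, with 25.1 ± 0.723 FPKM in F2 leaves and 0.617 ± 0.155 in F1 leaves (log2 fold change 5.39 ± 0.20, adjusted p = 1.24e-06).

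Markers of other leaf cells moved with these classes. Trichome and epidermis markers, a list that shares ketoacyl-CoA synthases and CER1 with the cuticle class, fell in 24 of 37 clusters and rose in 1, with sums of 722 to 752 FPKM in F2 leaves, against 2808 to 2826 in F1 leaves. Of these markers, 2 were at 0 counts in all F2 libraries and 1 at 0 counts in all F1 libraries. Xylem markers fell in 10 of 15, with 25.0 to 31.9 FPKM in F2 leaves, against 86.2 to 102 in F1 leaves. Phloem markers also fell in 10 of 15, with 43.8 to 51.3 FPKM in F2 leaves, against 113 to 129 in F1 leaves, and without F1 replicate 2 the count was 6 of 15. Guard cell markers fell in 3 of 9, with 31.4 to 32.1 FPKM in F2 leaves, against 61.0 to 66.3 in F1 leaves. None of the xylem, phloem and guard cell markers rose, and each was detected in both stages. Mesophyll markers, chiefly Rubisco and antenna proteins, rose in 14 of 47 and fell in 2. The part of shifting cell proportions in the results for wall, cuticle and chloroplast genes was not tested.

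**Figure D2:**
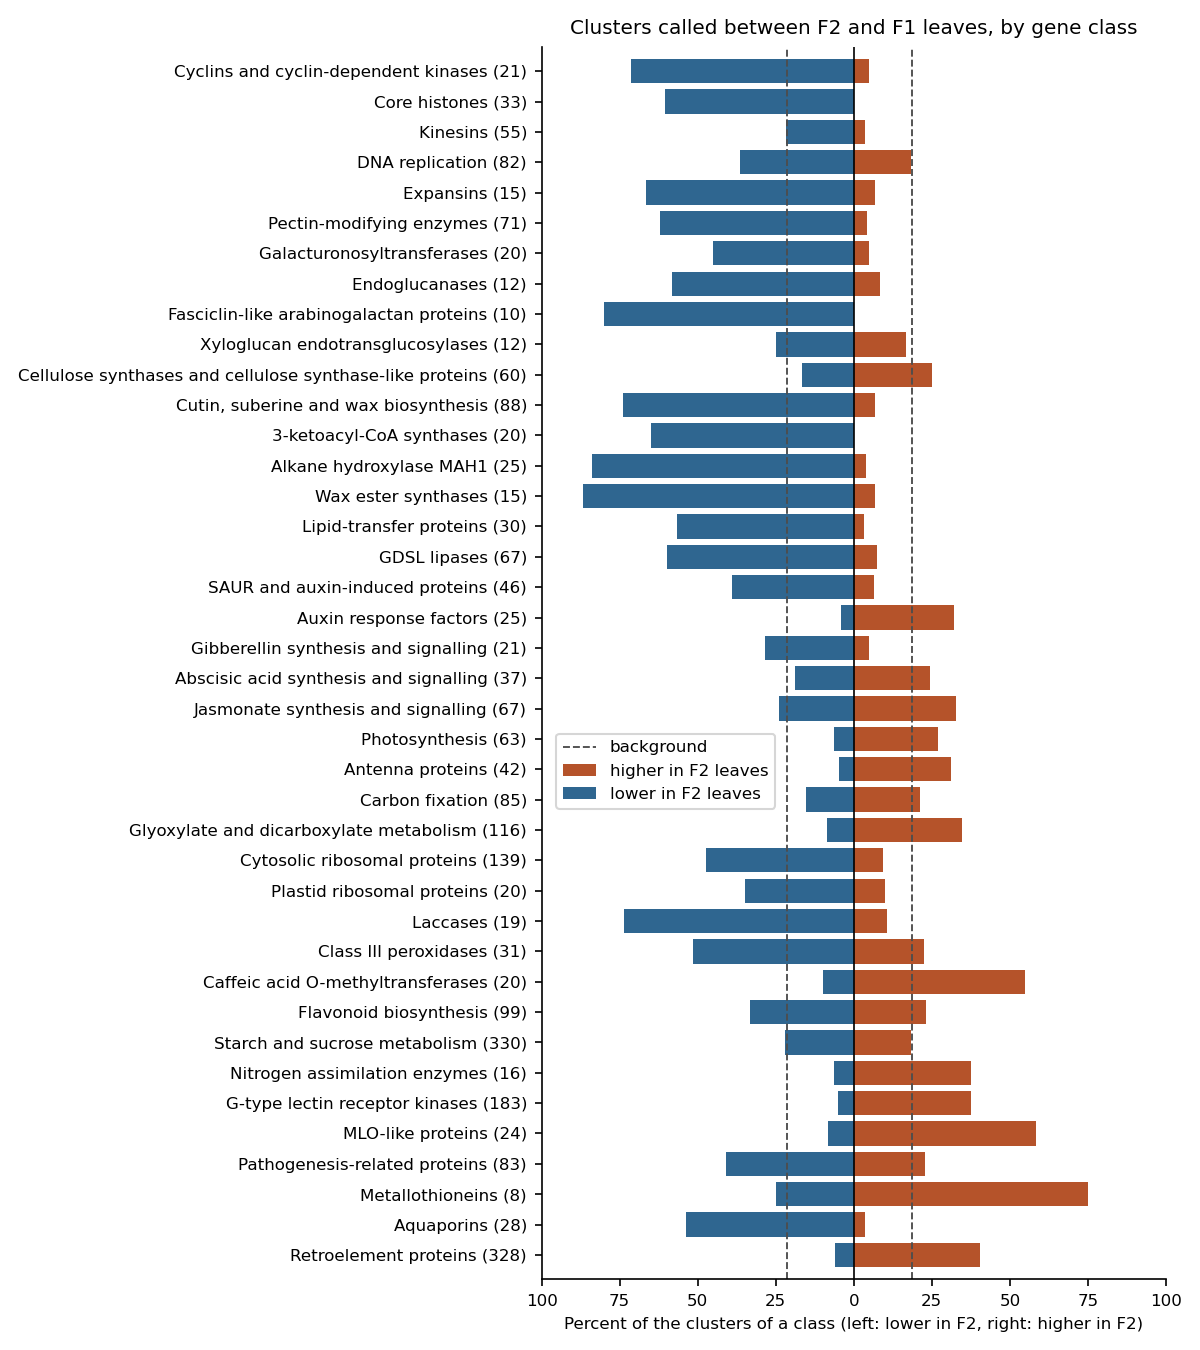
Share of clusters called higher (right) and lower (left) in F2 than in F1 leaves in 40 gene classes, in percent of the clusters of each class, whose number stands beside its name. Dashed lines mark the background over clusters with a Swiss-Prot match, 18.8% higher and 21.3% lower. Wax ester synthase, MAH1, fasciclin-like, cutin and wax, laccase and cyclin classes reach furthest to the left, and metallothioneins, MLO-like proteins and caffeic acid O-methyltransferases to the right. The 6 metallothionein clusters that rose share a number.

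Several families of regulators of leaf patterning and cell identity had more clusters lower than higher in F2 leaves. The KNOX homeobox genes, which keep cells of the shoot tip undifferentiated, fell in 2 of 3 clusters. Knotted-1-like 2 (Cluster-44086.0) had 0 counts in every F2 library, against 1.89, 2.11 and 2.06 FPKM in F1 leaves, at least 21.8-fold lower (adjusted p = 0.000132). Knotted-1-like 1 (Cluster-38855.0) had 0 counts in every F2 library, against 1.88, 1.71 and 1.10 FPKM in F1 leaves, at least 11.1-fold lower (adjusted p = 0.00177). All 3 WUSCHEL-related homeobox clusters fell, among them WOX4, known from the vascular cambium of Arabidopsis (Cluster-32609.0), with 1.07 ± 0.257 FPKM in F2 leaves and 4.59 ± 0.26 in F1 leaves (log2 fold change -2.05 ± 0.30, adjusted p = 0.000465). YABBY genes, which mark the lower side of a leaf, fell in 2 of 11 and rose in 0, a share close to the 21.3% lower among matched clusters. Under RLE scaling and under DESeq2, 5 of the 11 fell. The YABBY clusters summed to 140 to 145 FPKM in F2 leaves, against 285 to 287 in F1 leaves. YABBY 5 (Cluster-50256.0) had 5.34, 5.35 and 4.71 FPKM in F2 leaves, against 25.2, 25.4 and 25.6 in F1 leaves (log2 fold change -2.24 ± 0.14, adjusted p = 2.2e-06). YABBY 1 (Cluster-43550.1) had 7.62 ± 0.665 FPKM in F2 leaves and 17.5 ± 2.00 in F1 leaves (log2 fold change -1.20 ± 0.27, adjusted p = 0.00523).

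Ovate family repressors fell in 4 of 6 clusters and zinc-finger homeodomain proteins in 7 of 9, with 0 and 1 higher. TCP factors, which balance division against differentiation in leaf blades, fell in 4 of 13 and rose in 0, but their median log2 fold change was 0.1. Those that fell were led by TCP15 (Cluster-54067.0) with 1.95 ± 0.516 FPKM in F2 leaves and 6.58 ± 0.965 in F1 leaves (log2 fold change -1.70 ± 0.30, adjusted p = 0.00138). Of 5 growth-regulating factors, which promote leaf cell number, 1 fell (20.0%), a share close to the 21.3% lower among matched clusters. That member, GRF1 (Cluster-25789.0), had 1.69 ± 0.11 FPKM in F2 leaves and 3.75 ± 0.513 in F1 leaves (log2 fold change -1.17 ± 0.21, adjusted p = 0.00159). Under RLE scaling 3 of the 5 growth-regulating factors fell, and under DESeq2 2. Among HD-ZIP factors 7 of 24 fell and 2 rose. ATHB-13, a regulator of leaf shape in Arabidopsis (Cluster-42368.1), had 3.34 ± 0.703 FPKM in F2 leaves and 13.8 ± 2.08 in F1 leaves (log2 fold change -2.01 ± 0.31, adjusted p = 0.000688). The BELL homeobox proteins, partners of KNOX proteins, stood out by level: the BEL1 homolog (Cluster-51895.0) rose, with 64.2, 68.0 and 68.2 FPKM in F2 leaves, against 22.5, 20.0 and 24.5 in F1 leaves (log2 fold change 1.62 ± 0.06, adjusted p = 1.37e-07). BEL1-like 1 (Cluster-49797.0) rose, with 34.4 ± 0.48 FPKM in F2 leaves and 16.99 ± 0.439 in F1 leaves (log2 fold change 1.06 ± 0.05, adjusted p = 3.51e-07), while BEL1-like 8 (Cluster-38951.0) fell, with 0.517 ± 0.0839 FPKM in F2 leaves and 1.75 ± 0.24 in F1 leaves (log2 fold change -1.61 ± 0.17, adjusted p = 7.79e-05).

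Across all 1161 clusters with a transcription factor family, 182 were higher in F2 leaves (15.7%) and 268 lower (23.1%). MYB factors leaned lower, with 27 of 45 clusters lower and 2 higher and a median log2 fold change of -1.49. A cluster matched to a MYB-related protein of snapdragon (Cluster-38963.0) had 9.25, 10.1 and 9.18 FPKM in F2 leaves, against 26.9, 30.2 and 25.6 in F1 leaves (log2 fold change -1.49 ± 0.14, adjusted p = 3.84e-05). A MYB15 cluster (Cluster-4993.0) had 1.85, 1.63 and 1.93 FPKM in F2 leaves, against 0 counts in every F1 library, at least 12.4-fold higher (adjusted p = 0.00108). In the bHLH family 26 of 70 fell and 8 rose. ORG2, a regulator of the iron deficiency response in Arabidopsis (Cluster-21759.1), had 0.03, 0.16 and 0 FPKM in F2 leaves, against 60.4, 65.6 and 58.7 in F1 leaves (log2 fold change -9.50 ± 0.34, adjusted p = 1.08e-07). It was thus nearly silent in F2 leaves and plainly present in all F1 libraries.

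NAC factors fell in 13 of 34 clusters and rose in 4, bZIP factors fell in 8 of 31 and rose in 1, and ERF factors were mixed, with 12 higher and 18 lower of 53. ERF106 (Cluster-41054.0) had 132, 133 and 128 FPKM in F2 leaves, against 5.96, 5.27 and 4.75 in F1 leaves (log2 fold change 4.67 ± 0.09, adjusted p = 6.13e-09). NAC48 (Cluster-37911.0) had 9.52 ± 0.185 FPKM in F2 leaves and 34.7 ± 1.17 in F1 leaves (log2 fold change -1.82 ± 0.06, adjusted p = 9.89e-08). The bZIP factor HYH, a relative of the light regulator HY5 (Cluster-56757.0), had 32.4 ± 0.688 FPKM in F2 leaves and 72.6 ± 8.38 in F1 leaves (log2 fold change -1.12 ± 0.12, adjusted p = 6.9e-05), and TGA1, a cofactor in salicylate signalling (Cluster-45549.0), had 23.3 ± 0.584 FPKM in F2 leaves and 11.2 ± 0.792 in F1 leaves (log2 fold change 1.12 ± 0.07, adjusted p = 2.37e-06).

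WRKY factors, many of which act in defence and ageing, leaned higher, with 14 higher and 2 lower of 39 and a median of 0.85. WRKY31 (Cluster-50691.0) had 21.0 ± 0.732 FPKM in F2 leaves and 8.53 ± 0.608 in F1 leaves (log2 fold change 1.37 ± 0.07, adjusted p = 5.48e-07). The lean narrowed with the F1 and F2 libraries fitted alone, to 9 higher and 3 lower, and without F1 replicate 3, to the same counts. It was 10 higher and 5 lower under DESeq2 and 11 and 5 under RLE scaling. Among clusters with at least 1 FPKM, 7 rose and 3 fell of 27. Single members of other families that rose were MYB1R1 (Cluster-57262.0), with 134, 123 and 117 FPKM in F2 leaves, against 14.6, 23.9 and 31.2 in F1 leaves (log2 fold change 2.48 ± 0.26, adjusted p = 0.000243), and GLK1, an activator of chloroplast genes (Cluster-21448.0), with 3.40 ± 0.411 FPKM in F2 leaves and 0.653 ± 0.183 in F1 leaves (log2 fold change 2.41 ± 0.40, adjusted p = 0.000986). Scarecrow-like 32 (Cluster-28843.0) rose, with 37.4 ± 2.23 FPKM in F2 leaves and 13.1 ± 0.806 in F1 leaves (log2 fold change 1.55 ± 0.08, adjusted p = 6.03e-07). SHORT-ROOT of the same GRAS family, known for tissue layering around the veins (Cluster-39703.0), fell, with 0.707 ± 0.0808 FPKM in F2 leaves and 4.58 ± 0.491 in F1 leaves (log2 fold change -2.65 ± 0.25, adjusted p = 3.11e-05). SPL8, a squamosa promoter-binding factor (Cluster-38135.0), fell, with 0.697 ± 0.586 FPKM in F2 leaves and 8.85 ± 1.70 in F1 leaves (log2 fold change -3.78 ± 0.49, adjusted p = 0.000237). NPR5, known in Arabidopsis as BLADE-ON-PETIOLE2, which acts at the leaf base (Cluster-53441.0), fell, with 0.957 ± 0.17 FPKM in F2 leaves and 4.73 ± 0.355 in F1 leaves (log2 fold change -2.30 ± 0.14, adjusted p = 2.54e-06).

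**Figure D3:**
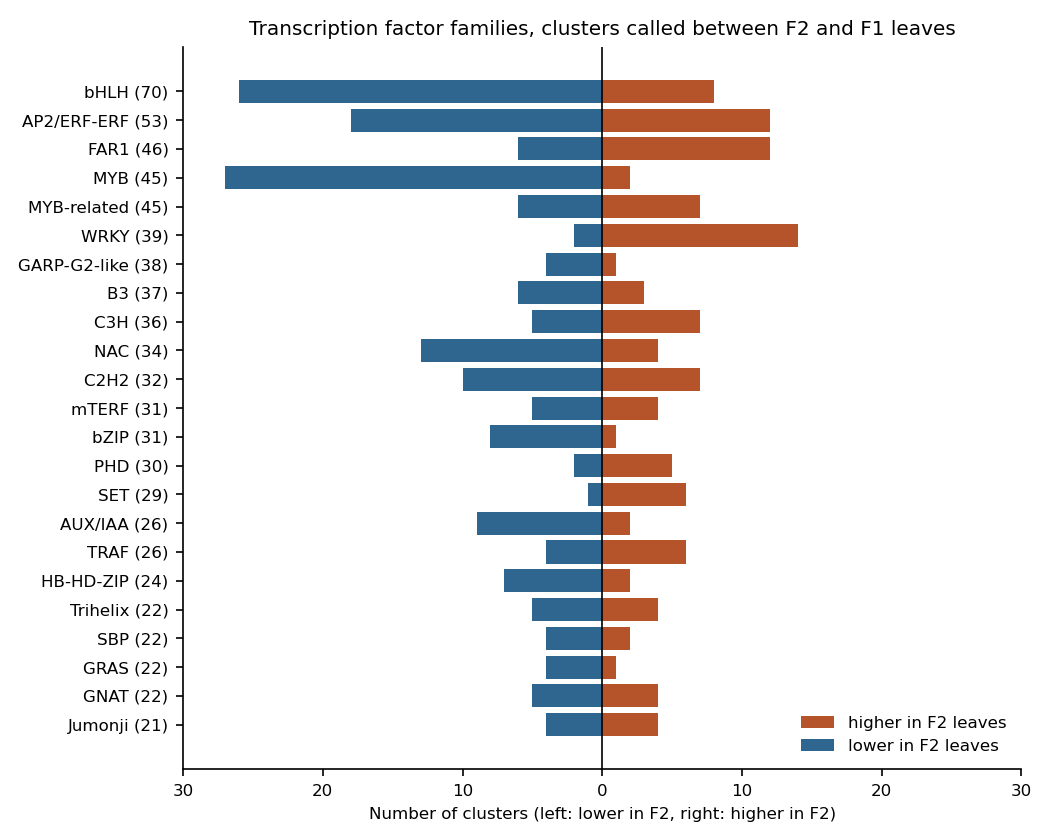
Number of clusters called higher (right) and lower (left) in F2 than in F1 leaves in the 23 transcription factor families with at least 20 clusters, with the number of clusters beside each name. MYB (2 higher, 27 lower) and bHLH (8 higher, 26 lower) lie furthest to the left and WRKY (14 higher, 2 lower) to the right.

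Hormone genes differed by hormone. SAUR and auxin-induced proteins, which rise quickly when auxin drives growth, fell in 18 of 46 clusters and rose in 3, but with clusters of a number summed the counts were 5 lower and 4 higher, and without F1 replicate 2 they were 8 lower and 3 higher. Aux/IAA repressors fell in 6 of 20 and rose in 2, led by IAA8 (Cluster-53683.0) with 26.3, 23.8 and 24.1 FPKM in F2 leaves, against 82.2, 85.4 and 80.3 in F1 leaves (log2 fold change -1.69 ± 0.08, adjusted p = 3.9e-07). Auxin response factors, which bind the promoters of auxin genes, went the other way, with 8 higher and 1 lower of 25. ARF18 (Cluster-39812.0) had 25.8 ± 0.604 FPKM in F2 leaves and 9.97 ± 0.699 in F1 leaves (log2 fold change 1.42 ± 0.06, adjusted p = 3.1e-07). ARF5, or MONOPTEROS, which guides vein formation in Arabidopsis (Cluster-28696.0), was the exception, with 1.43 ± 0.141 FPKM in F2 leaves and 3.63 ± 0.423 in F1 leaves (log2 fold change -1.30 ± 0.15, adjusted p = 0.000121). Of the auxin influx carriers, one LAX3 cluster (Cluster-33043.0) rose, with 21.6 ± 1.92 FPKM in F2 leaves and 9.85 ± 1.98 in F1 leaves (log2 fold change 1.18 ± 0.16, adjusted p = 0.000272). Another (Cluster-40299.0) fell, with 3.70 ± 0.706 FPKM in F2 leaves and 33.5 ± 1.09 in F1 leaves (log2 fold change -3.13 ± 0.15, adjusted p = 6.32e-07).

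Gibberellin genes fell in 6 of 21 clusters and rose in 1. Gibberellin-regulated protein 6, a small secreted protein, fell in both of its leading clusters: Cluster-50317.0 had 2.43, 2.93 and 1.37 FPKM in F2 leaves, against 69.1, 66.6 and 62.1 in F1 leaves (log2 fold change -4.79 ± 0.29, adjusted p = 2.19e-06), and Cluster-38024.0 had 0.137 ± 0.118 FPKM in F2 leaves and 38.3 ± 4.85 in F1 leaves (log2 fold change -7.80 ± 0.49, adjusted p = 1.81e-05). The member that rose was gibberellin 2-beta-dioxygenase 1, which inactivates gibberellin (Cluster-20148.0), with 12.5, 11.3 and 9.27 FPKM in F2 leaves, against 0.99, 1.31 and 1.30 in F1 leaves (log2 fold change 3.46 ± 0.23, adjusted p = 3.27e-06). The KEGG pathway of brassinosteroid synthesis fell in 11 of 20 clusters and rose in 3. Its leading clusters that fell match TMTT synthase, a P450 that releases a leaf volatile and makes no brassinosteroid. Of these, Cluster-38253.2 had 7.27, 8.07 and 6.27 FPKM in F2 leaves, against 526, 509 and 552 in F1 leaves (log2 fold change -6.15 ± 0.12, adjusted p = 6.13e-09), and Cluster-51596.2, of another number, had 1.50, 0.94 and 0.2 FPKM in F2 leaves, against 168, 155 and 182 in F1 leaves (log2 fold change -7.48 ± 0.46, adjusted p = 1.57e-05). In both, each F2 library stood more than 50-fold below each F1 library. The leading cluster of the pathway that rose shares its number with Cluster-38253.2, so single clusters of that number disagree. All clusters of the pathway together summed to 198 to 204 FPKM in F2 leaves, against 1347 to 1553 in F1 leaves.

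For abscisic acid, the hormone of drought and stomatal closure, 9 clusters rose and 7 fell of 37. Its receptor PYL4 rose in 2 clusters of different numbers: Cluster-25454.0 had 71.7, 72.0 and 75.9 FPKM in F2 leaves, against 11.4, 12.9 and 10.3 in F1 leaves (log2 fold change 2.71 ± 0.10, adjusted p = 1.11e-07), and Cluster-36761.0 had 53.8 ± 3.00 FPKM in F2 leaves and 16.2 ± 2.73 in F1 leaves (log2 fold change 1.78 ± 0.10, adjusted p = 1.6e-06). Abscisic acid 8'-hydroxylase 2, which breaks the hormone down (Cluster-30210.0), fell, with 1.53 ± 0.315 FPKM in F2 leaves and 4.64 ± 0.528 in F1 leaves (log2 fold change -1.68 ± 0.23, adjusted p = 0.000335). For ethylene, 4 rose and 2 fell of 21. A cluster matched to an ACC oxidase homolog (Cluster-51800.4) had 16.3 ± 0.481 FPKM in F2 leaves and 2.52 ± 0.457 in F1 leaves (log2 fold change 2.77 ± 0.23, adjusted p = 1.69e-05). Whether this homolog takes part in ethylene synthesis was not tested. ACC synthase 1, an enzyme of ethylene synthesis (Cluster-40884.0), had 0 counts in every F2 library, against 1.29, 1.72 and 1.39 FPKM in F1 leaves, at least 12.2-fold lower (adjusted p = 0.00122).

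Jasmonate synthesis and signalling counted 22 higher and 16 lower of 67 clusters. The lipoxygenase LOX2-1, which oxidises linolenic acid in chloroplasts, rose in clusters of separate numbers, with 319.6, 306 and 306 FPKM in F2 leaves, against 125, 141 and 135 in F1 leaves in Cluster-56222.2 (log2 fold change 1.27 ± 0.08, adjusted p = 2.49e-06) and 303 ± 5.79 FPKM in F2 leaves and 149.9 ± 10.9 in F1 leaves in Cluster-56010.5 (log2 fold change 1.06 ± 0.06, adjusted p = 9.74e-07). Allene oxide cyclase, a later step (Cluster-4126.3), fell, with 52.0 ± 5.52 FPKM in F2 leaves and 471 ± 21.6 in F1 leaves (log2 fold change -3.10 ± 0.11, adjusted p = 1.22e-06), and summed over 16 clusters to 1063 FPKM in F2 leaves and 1719 in F1 leaves. Cytokinin response regulators and enzymes counted 12 higher and 4 lower of 37. The most abundant that rose is a pseudo-response regulator of the circadian clock, PRR73 (Cluster-50790.1), with 43.1 ± 2.26 FPKM in F2 leaves and 11.3 ± 1.54 in F1 leaves (log2 fold change 1.97 ± 0.13, adjusted p = 4.2e-06). LOG3, which releases active cytokinin (Cluster-51575.0), fell, with 1.22 ± 0.317 FPKM in F2 leaves and 11.3 ± 1.03 in F1 leaves (log2 fold change -3.19 ± 0.31, adjusted p = 3.8e-05), as did the response regulator ARR4 (Cluster-48058.1), with 1.40 ± 0.408 FPKM in F2 leaves and 3.59 ± 0.793 in F1 leaves (log2 fold change -1.32 ± 0.41, adjusted p = 0.0254). ARR4 lost its call without F2 replicate 1, F2 replicate 3, F1 replicate 1 or F1 replicate 3, at -1.13 to -1.29 on the log2 scale. Another cluster with the number of LOG3 was among the leading clusters that rose. The fall of Cluster-51575.0 thus does not describe its whole number.

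Genes of the chloroplast leaned higher in F2 leaves. In the KEGG pathway of photosynthesis, 17 of 63 clusters rose and 4 fell, and among antenna proteins 13 of 42 rose and 2 fell. The antenna clusters summed to 71273 to 74598 FPKM in F2 leaves, against 36454 to 39315 in F1 leaves. PsaD, which docks ferredoxin on photosystem I (Cluster-40591.0), had 975, 995 and 1026 FPKM in F2 leaves, against 289, 260.0 and 276 in F1 leaves (log2 fold change 1.91 ± 0.05, adjusted p = 2.75e-08). The antenna protein Cab6 (Cluster-39499.0) had 5502, 5533 and 5766 FPKM in F2 leaves, against 2436, 2006 and 2530.4 in F1 leaves (log2 fold change 1.32 ± 0.06, adjusted p = 4.46e-07). Cab16 (Cluster-47164.0) had 5819 ± 276 FPKM in F2 leaves and 2570.4 ± 48.9 in F1 leaves (log2 fold change 1.22 ± 0.05, adjusted p = 1.98e-07). A cluster of another antenna protein (Cluster-33836.3) fell, with 49.5 ± 5.30 FPKM in F2 leaves and 375 ± 33.3 in F1 leaves (log2 fold change -2.88 ± 0.12, adjusted p = 2.65e-07), while its number as a whole summed to 12650.0 FPKM in F2 leaves and 7671 in F1 leaves. Plastid ribosomal proteins did not share the lean, with 2 higher and 7 lower of 20. Protein L28 (Cluster-55293.0) had 203, 209 and 192 FPKM in F2 leaves, against 479, 563 and 469 in F1 leaves (log2 fold change -1.26 ± 0.10, adjusted p = 8.96e-06). L29 (Cluster-46301.0) had 169 ± 5.47 FPKM in F2 leaves and 358 ± 30.3 in F1 leaves (log2 fold change -1.03 ± 0.09, adjusted p = 1.42e-05).

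Photorespiration, which recycles the product of Rubisco's reaction with oxygen, rose more often than it fell. In glyoxylate and dicarboxylate metabolism 40 of 116 clusters rose and 10 fell, and under RLE scaling 22 rose and 11 fell. Without F1 replicate 2, 24 rose and 9 fell. Catalase 1, which removes the hydrogen peroxide of peroxisomes (Cluster-44332.9), had 1518, 1588 and 1651 FPKM in F2 leaves, against 574, 471 and 561 in F1 leaves (log2 fold change 1.61 ± 0.06, adjusted p = 1.11e-07). The glycine decarboxylase P protein of mitochondria (Cluster-42333.5) had 1128, 1149.7 and 1176 FPKM in F2 leaves, against 589.7, 474 and 652 in F1 leaves (log2 fold change 1.05 ± 0.09, adjusted p = 1.29e-05). Its small partner, H protein 2 (Cluster-53593.0), fell, with 15.2 ± 2.39 FPKM in F2 leaves and 39.2 ± 3.06 in F1 leaves (log2 fold change -1.33 ± 0.17, adjusted p = 0.000248). The related pathway of glycine, serine and threonine counted 30 higher and 11 lower of 100. Carbon fixation counted 18 higher and 13 lower of 85, a balance that turned to 12 and 16 under RLE scaling. Its glyceraldehyde-3-phosphate dehydrogenase B of the Calvin cycle (Cluster-49032.0) had 215 ± 15.7 FPKM in F2 leaves and 107 ± 10.4 in F1 leaves (log2 fold change 1.06 ± 0.12, adjusted p = 0.000135). Pyruvate, phosphate dikinase (Cluster-54840.2) had 87.2 ± 3.63 FPKM in F2 leaves and 39.8 ± 4.20 in F1 leaves (log2 fold change 1.18 ± 0.07, adjusted p = 1.23e-06).

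Pigment and isoprenoid genes of plastids moved singly. Chlorophyll b reductase NYC1, which starts the breakdown of chlorophyll b (Cluster-56807.2), had 54.1, 55.5 and 57.8 FPKM in F2 leaves, against 19.4, 17.4 and 20.7 in F1 leaves (log2 fold change 1.59 ± 0.06, adjusted p = 1.48e-07). Carotenoid cleavage dioxygenase 4 (Cluster-19597.0) had 209, 212 and 207 FPKM in F2 leaves, against 72.1, 64.5 and 80.3 in F1 leaves (log2 fold change 1.58 ± 0.06, adjusted p = 1.99e-07). Zeaxanthin epoxidase of the xanthophyll cycle (Cluster-53082.6) had 182 ± 3.18 FPKM in F2 leaves and 76.6 ± 0.905 in F1 leaves (log2 fold change 1.29 ± 0.05, adjusted p = 1.11e-07). Beta-carotene hydroxylase 2 (Cluster-51695.6) fell, with 32.5 ± 5.95 FPKM in F2 leaves and 112 ± 11.7 in F1 leaves (log2 fold change -1.74 ± 0.35, adjusted p = 0.0029), though its 7 clusters summed to 157 FPKM in F2 leaves and 156 in F1 leaves. The whole carotenoid pathway counted 15 higher and 10 lower of 62, and porphyrin metabolism 7 higher and 4 lower of 48, which turned to 6 and 7 under RLE scaling. Of the plastid isoprenoid route, DXS (Cluster-40107.1) had 76.9 ± 3.55 FPKM in F2 leaves and 33.8 ± 1.22 in F1 leaves (log2 fold change 1.23 ± 0.07, adjusted p = 1.03e-06) and ISPG (Cluster-48306.4) had 74.7 ± 1.02 FPKM in F2 leaves and 29.4 ± 2.96 in F1 leaves (log2 fold change 1.39 ± 0.08, adjusted p = 1.13e-06). The terpenoid backbone pathway counted 17 higher and 9 lower of 73, and farnesyl pyrophosphate synthase of its cytosolic branch (Cluster-40102.1) fell, with 4.39 ± 1.57 FPKM in F2 leaves and 14.2 ± 1.94 in F1 leaves (log2 fold change -1.62 ± 0.44, adjusted p = 0.0133).

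**Figure D4:**
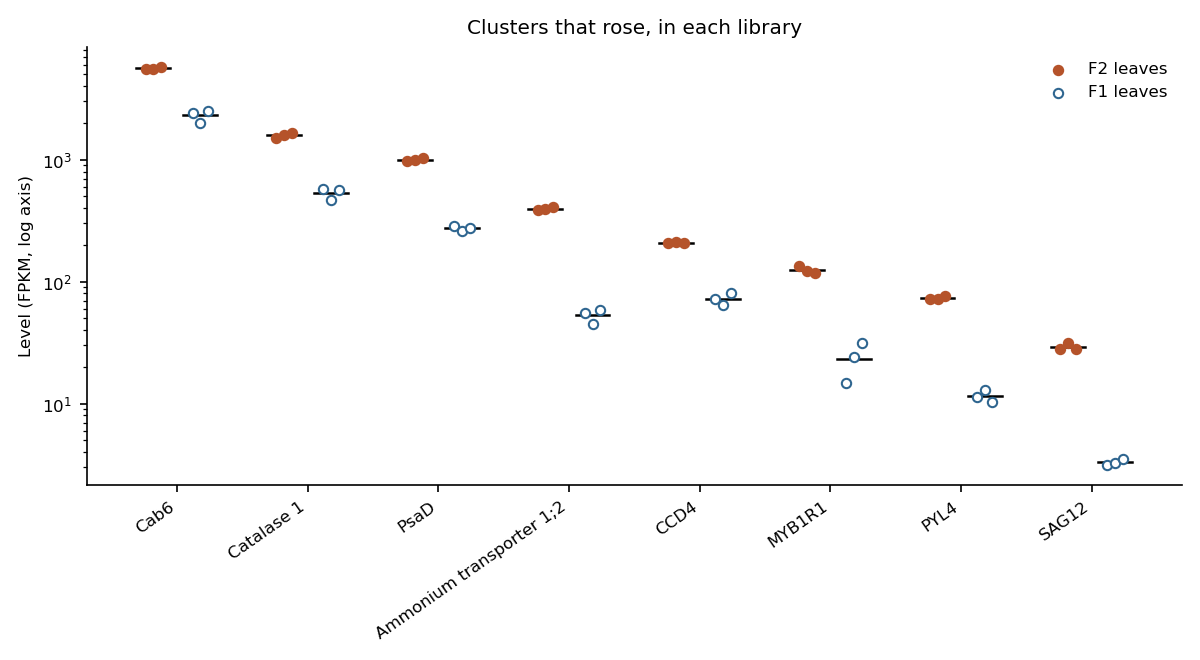
Level of 8 clusters that rose, in each library, in FPKM on a log axis, with F2 leaves (filled) left of F1 leaves (open) for each cluster and the mean of 3 libraries as a bar. Each F2 library lies above each F1 library in all 8 clusters, which span the antenna protein Cab6, catalase, an ammonium transporter and the protease SAG12.

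Cytosolic ribosomal proteins, the parts of the machine that makes proteins, fell in 66 of 139 clusters and rose in 13, with a median log2 fold change of -0.98. Without F1 replicate 2 the counts were 41 lower and 9 higher. Their levels summed to 6261 to 6429 FPKM in F2 leaves, against 11961 to 13603 in F1 leaves. Protein P2 of the ribosome stalk (Cluster-41476.0) had 162, 161 and 180.4 FPKM in F2 leaves, against 380.3, 439 and 361 in F1 leaves (log2 fold change -1.11 ± 0.17, adjusted p = 0.000657). An L10 cluster (Cluster-55043.0) fell, with 204 ± 7.42 FPKM in F2 leaves and 456 ± 16.1 in F1 leaves (log2 fold change -1.11 ± 0.07, adjusted p = 1.66e-06). Another of the same number (Cluster-55043.1) rose, with 212 ± 8.96 FPKM in F2 leaves and 53.0 ± 6.30 in F1 leaves (log2 fold change 2.02 ± 0.11, adjusted p = 8.87e-07). Summed over the 4 clusters of that number, L10 stood at 424 FPKM in F2 leaves and 526 in F1 leaves. Pentatricopeptide repeat proteins, which process RNA in organelles, were mostly not called, with 43 higher and 27 lower of 434.

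Phenolic metabolism was divided within its families. Laccases, which polymerise lignin and other phenolics, fell in 14 of 19 clusters and rose in 2. Laccase-4 (Cluster-56448.0) and laccase-17 (Cluster-52010.0), the lignin laccases of Arabidopsis xylem, both fell, with 5.42 ± 0.609 FPKM in F2 leaves and 14.1 ± 1.10 in F1 leaves for laccase-4 (log2 fold change -1.33 ± 0.26, adjusted p = 0.00245) and 1.14 ± 0.218 FPKM in F2 leaves and 14.3 ± 0.567 in F1 leaves for laccase-17 (log2 fold change -3.59 ± 0.32, adjusted p = 0.00011). Laccase-3 (Cluster-31887.0) rose, with 56.7, 60.7 and 57.1 FPKM in F2 leaves, against 2.65, 2.74 and 2.29 in F1 leaves (log2 fold change 4.51 ± 0.12, adjusted p = 3.23e-08). Laccase-1 (Cluster-42634.0) rose, with 23.1 ± 0.389 FPKM in F2 leaves and 0.02 ± 0.02 in F1 leaves (log2 fold change 9.91 ± 0.33, adjusted p = 8.1e-07). The 2 that rose were thus more abundant in F2 leaves than both lignin laccases were in either stage. Class III peroxidases, which also oxidise phenolics in walls, fell in 16 of 31 and rose in 7, led by peroxidase 42 (Cluster-35930.0) with 19.5, 20.9 and 17.2 FPKM in F2 leaves, against 205, 212 and 197 in F1 leaves (log2 fold change -3.37 ± 0.10, adjusted p = 4.42e-08).

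Dirigent proteins, which steer the coupling of phenolic radicals, counted 5 higher and 8 lower of 14. Dirigent protein 3 (Cluster-48322.0) had 74.5, 66.8 and 74.9 FPKM in F2 leaves, against 0, 0.06 and 0.13 in F1 leaves (log2 fold change 9.93 ± 0.34, adjusted p = 9.38e-08). Dirigent protein 19 (Cluster-55769.0) had 41.0, 36.0 and 39.4 FPKM in F2 leaves, against 229, 251 and 209 in F1 leaves (log2 fold change -2.58 ± 0.10, adjusted p = 1.41e-07). These are opposite changes within a family, each wider than the gap between libraries of a stage. Caffeic acid O-methyltransferases, which methylate lignin precursors and other phenols, leaned higher, with 11 of 20 higher and 2 lower. The leading cluster (Cluster-55979.1) had 59.7, 54.7 and 52.2 FPKM in F2 leaves, against 9.28, 11.8 and 10.3 in F1 leaves (log2 fold change 2.40 ± 0.09, adjusted p = 1.69e-07).

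The flavonoid pathway counted 23 higher and 33 lower of 99. Chalcone synthase, its first enzyme (Cluster-33434.4), fell, with 188, 190.1 and 181 FPKM in F2 leaves, against 590.2, 587 and 599 in F1 leaves (log2 fold change -1.62 ± 0.06, adjusted p = 1.3e-07), and summed over 11 clusters to 563 FPKM in F2 leaves and 1416 in F1 leaves. Cytochrome P450 93B2 (Cluster-26969.1), matched to a flavone synthase of Gerbera, fell, with 90.8 ± 0.66 FPKM in F2 leaves and 400.0 ± 14.4 in F1 leaves (log2 fold change -2.08 ± 0.07, adjusted p = 8.19e-08). P450 98A2, the coumarate 3-hydroxylase step of phenylpropanoids (Cluster-35205.4), fell, with 148 ± 3.79 FPKM in F2 leaves and 312 ± 8.58 in F1 leaves (log2 fold change -1.03 ± 0.04, adjusted p = 1.11e-07). A cinnamate 4-hydroxylase cluster (Cluster-42964.0), of an earlier step, was at 33.6 FPKM in F2 leaves and nearly undetected in F1 leaves, with 27.5, 29.2 and 44.2 FPKM in F2 leaves, against 0.01, 0.01 and 0 in F1 leaves (log2 fold change 13.18 ± 0.49, adjusted p = 1.23e-07). The larger phenylpropanoid pathway was even, with 45 higher and 51 lower of 154.

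Sesquiterpenoid and triterpenoid genes counted 18 higher and 10 lower of 53, and 4 each with clusters of a number summed. Germacrene D synthase, which makes a common leaf sesquiterpene (Cluster-31835.9), had 127, 134 and 129 FPKM in F2 leaves, against 57.7, 69.0 and 61.5 in F1 leaves (log2 fold change 1.09 ± 0.09, adjusted p = 1.12e-05). Named cytochrome P450s were split, with 36 higher and 27 lower of 108. The most abundant that rose, 736A117 (Cluster-44207.7), had 97.9, 114 and 122 FPKM in F2 leaves, against 66.7, 44.2 and 82.2 in F1 leaves. The counts it was fitted on, 7645 in F2 leaves and 2948 in F1 leaves over the 3 libraries of each, gave a larger change than these levels (log2 fold change 1.35 ± 0.08, adjusted p = 1.4e-06). With limma on log2(FPKM + 1) the log2 fold change was 0.82, under the fold threshold. The balance of the class turned to 22 higher and 23 lower on that scale, and to 19 higher and 21 lower with clusters of a number summed.

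Sugar and starch genes showed both directions. Granule-bound starch synthase 1, which makes amylose (Cluster-353.5), had 961, 961 and 959 FPKM in F2 leaves, against 443, 426 and 448 in F1 leaves (log2 fold change 1.18 ± 0.03, adjusted p = 3.84e-08), and summed over 13 clusters to 1956 FPKM in F2 leaves and 1364 in F1 leaves. The soluble acid invertase I, which splits sucrose in the vacuole (Cluster-31009.0), had 0.79, 1.22 and 1.21 FPKM in F2 leaves, against 45.6, 40.7 and 46.8 in F1 leaves (log2 fold change -5.33 ± 0.16, adjusted p = 5.12e-08). Sucrose synthase, which cleaves sucrose in growing sinks (Cluster-45626.1), had 30.4 ± 1.33 FPKM in F2 leaves and 82.0 ± 5.16 in F1 leaves (log2 fold change -1.39 ± 0.06, adjusted p = 2.12e-07). Both sucrose-cleaving enzymes were thus lower in every F2 library. A sucrose-phosphate synthase cluster, of the route that makes sucrose (Cluster-56923.1), rose, with 4.86 ± 0.763 FPKM in F2 leaves and 2.08 ± 0.791 in F1 leaves (log2 fold change 1.36 ± 0.38, adjusted p = 0.0156). Among sugar transporters 9 rose and 8 fell of 50, a balance that turned to 6 higher and 10 lower under RLE scaling and DESeq2. It also turned without any library but F2 replicate 3, to between 6 and 8 higher and between 8 and 10 lower. Sugar carrier protein C (Cluster-30223.0) had 193 ± 4.12 FPKM in F2 leaves and 100.4 ± 4.02 in F1 leaves (log2 fold change 1.05 ± 0.04, adjusted p = 1.11e-07). The vacuolar SWEET16 (Cluster-39656.1) had 12.2 ± 0.118 FPKM in F2 leaves and 39.6 ± 1.58 in F1 leaves (log2 fold change -1.64 ± 0.13, adjusted p = 8.95e-06). The KEGG pathway of starch and sucrose, the largest of these lists, counted 60 higher and 73 lower of 330.

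Nitrogen genes were led by ammonium transporter 1 member 2 (Cluster-25647.0), which takes ammonium into cells, with 389, 392 and 409 FPKM in F2 leaves, against 55.4, 44.8 and 58.5 in F1 leaves (log2 fold change 2.95 ± 0.08, adjusted p = 3.4e-08). All F2 libraries stood more than 6-fold above all F1 libraries. The nitrate transporter NPF7.3 (Cluster-32327.0) rose, with 74.7 ± 0.907 FPKM in F2 leaves and 37.5 ± 1.31 in F1 leaves (log2 fold change 1.04 ± 0.05, adjusted p = 3.61e-07), and oligopeptide transporter 3, which moves iron and copper in Arabidopsis phloem (Cluster-44378.0), fell, with 121 ± 3.25 FPKM in F2 leaves and 266 ± 23.9 in F1 leaves (log2 fold change -1.09 ± 0.06, adjusted p = 1.46e-06). Of all nitrate, ammonium and peptide transporters together, 22 rose and 13 fell of 64. Under RLE scaling 19 rose and 16 fell, and under DESeq2 19 rose and 17 fell. Enzymes that assimilate nitrogen rose in 6 of 16 clusters and fell in 1, but under RLE scaling 3 rose, a share close to the 18.8% background, and under DESeq2 4 rose. Without F2 replicate 1 or F2 replicate 2, 4 rose as well. Ferredoxin-dependent glutamate synthase, which refixes the ammonium of photorespiration (Cluster-52377.0), had 259, 260.1 and 257 FPKM in F2 leaves, against 134, 114 and 146 in F1 leaves (log2 fold change 1.02 ± 0.06, adjusted p = 2.58e-06). Glutamine synthetase (Cluster-52594.3) had 19.4 ± 1.71 FPKM in F2 leaves and 8.62 ± 0.72 in F1 leaves (log2 fold change 1.23 ± 0.20, adjusted p = 0.000993). Glutamate dehydrogenase 2 (Cluster-21897.0) was the exception, with 0.293 ± 0.164 FPKM in F2 leaves and 3.49 ± 0.45 in F1 leaves (log2 fold change -3.50 ± 0.44, adjusted p = 0.000197).

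Proteases fell more often than they rose, apart from a few of high fold. Cysteine proteases and their inhibitors counted 6 higher and 9 lower of 31. SAG12, the classical protease of ageing leaves in Arabidopsis (Cluster-14907.1), had 28.1, 31.7 and 28.3 FPKM in F2 leaves, against 3.16, 3.26 and 3.50 in F1 leaves (log2 fold change 3.24 ± 0.18, adjusted p = 1.44e-06). XCP1, a protease of xylem cells (Cluster-54605.0), had 12.6 ± 0.554 FPKM in F2 leaves and 41.9 ± 3.82 in F1 leaves (log2 fold change -1.66 ± 0.10, adjusted p = 2.03e-06). The inhibitor cystatin (Cluster-43283.0) had 121 ± 4.16 FPKM in F2 leaves and 277 ± 35.1 in F1 leaves (log2 fold change -1.14 ± 0.10, adjusted p = 2.84e-05). Aspartic proteases counted 15 higher and 23 lower of 54, with At5g10770 (Cluster-54172.2) at 100.2, 95.7 and 98.2 FPKM in F2 leaves, against 11.4, 10.1 and 16.2 in F1 leaves (log2 fold change 3.01 ± 0.15, adjusted p = 8.23e-07). ASPG1, which acts in guard cells (Cluster-13773.0), fell, with 146 ± 1.28 FPKM in F2 leaves and 329.6 ± 12.6 in F1 leaves (log2 fold change -1.13 ± 0.04, adjusted p = 6.5e-08). Serine carboxypeptidase-like proteins fell in 18 of 43 and subtilisin-like proteases in 11 of 27, led by SBT1.7 (Cluster-23455.0) with 20.2 ± 0.514 FPKM in F2 leaves and 62.8 ± 1.05 in F1 leaves (log2 fold change -1.59 ± 0.05, adjusted p = 5.98e-08).

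Of 12 senescence markers, 3 rose and 2 fell, with sums of 153 to 161 FPKM in F2 leaves, against 81.5 to 85.0 FPKM in F1 leaves, and 2 were at 0 counts in all F2 libraries. Among those that fell was SAG20 (Cluster-31813.0), a gene of wounding and ageing, with 0.08, 0.07 and 0.1 FPKM in F2 leaves, against 8.98, 11.4 and 8.48 in F1 leaves (log2 fold change -6.68 ± 0.45, adjusted p = 2.61e-05). The list therefore did not move one way. Autophagy, the breakdown of cell contents in the vacuole, counted 7 higher and 3 lower of 32.

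Genes of pathogen recognition leaned higher. G-type lectin receptor kinases, cell surface kinases of which some sense bacterial molecules, rose in 69 of 183 clusters and fell in 9, with a median log2 fold change of 0.84. A cluster of this family (Cluster-52706.3) had 34.2, 47.2 and 40.1 FPKM in F2 leaves, against 6.95, 6.99 and 7.84 in F1 leaves (log2 fold change 2.40 ± 0.06, adjusted p = 2.39e-08). Named disease resistance proteins, the receptors inside the cell, rose in 67 of 233 and fell in 31, among them an RPP13-like cluster that fell (Cluster-41583.2), with 1.33 ± 0.174 FPKM in F2 leaves and 16.3 ± 1.14 in F1 leaves (log2 fold change -3.57 ± 0.18, adjusted p = 6.38e-07). MLO-like proteins, membrane proteins that powdery mildew needs for entry, rose in 14 of 24 clusters and fell in 2, but most of those clusters share a number, and with clusters of a number summed 3 rose and 2 fell. MLO-like 10 (Cluster-9310.13) had 18.01, 17.2 and 17.9 FPKM in F2 leaves, against 4.27, 4.55 and 5.96 in F1 leaves (log2 fold change 1.89 ± 0.14, adjusted p = 6.64e-06). MLO-like 4 (Cluster-54591.0) had 2.04 ± 0.325 FPKM in F2 leaves and 8.69 ± 0.376 in F1 leaves (log2 fold change -2.11 ± 0.23, adjusted p = 9.26e-05). The KEGG pathway of plant-pathogen interaction, with 151 higher and 115 lower of 595, turned to 123 and 140 under RLE scaling. Its leading members that fell are the wax enzymes KCS19 and KCS6 named above, and calmodulin-like protein 5, a calcium sensor (Cluster-37495.0), led those that rose, with 178, 175 and 161 FPKM in F2 leaves, against 43.0, 44.5 and 33.6 in F1 leaves (log2 fold change 2.13 ± 0.13, adjusted p = 2.04e-06).

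Pathogenesis-related proteins, the secreted products of defence, leaned lower instead, with 19 higher and 34 lower of 83. STH-2 of this group (Cluster-28377.0) rose, with 449, 453 and 417 FPKM in F2 leaves, against 109, 117 and 107 in F1 leaves (log2 fold change 2.04 ± 0.08, adjusted p = 1.21e-07). PR-1 (Cluster-54294.0) fell, with 27.1, 32.1 and 26.6 FPKM in F2 leaves, against 138, 148 and 129.8 in F1 leaves (log2 fold change -2.23 ± 0.15, adjusted p = 3.36e-06), and chitinase-like 2, which acts in wall assembly (Cluster-14921.0), fell, with 10.3 ± 0.875 FPKM in F2 leaves and 42.8 ± 1.91 in F1 leaves (log2 fold change -2.01 ± 0.22, adjusted p = 9.47e-05). Wall-associated kinases were even, with 12 higher and 13 lower of 33.

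Metallothioneins, small proteins that bind copper and zinc, held opposite changes of high level. The type 2 cluster Cluster-28126.0 was among the 10 most abundant of F1 leaves, with 304, 279.6 and 272 FPKM in F2 leaves, against 3716, 3951 and 3481 in F1 leaves (log2 fold change -3.65 ± 0.11, adjusted p = 4.61e-08). A further type 2 cluster (Cluster-28993.0) had 6.06 ± 1.50 FPKM in F2 leaves and 183 ± 9.99 in F1 leaves (log2 fold change -4.83 ± 0.17, adjusted p = 1.08e-07). Type 3 rose, and its number as a whole, which includes Cluster-54034.5, summed to 3036 FPKM in F2 leaves and 15.7 in F1 leaves. Type 2 was thus the main form in F1 leaves and type 3 in F2 leaves. All 6 clusters that rose belong to that type 3 number.

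Chaperones were split, with 21 higher and 24 lower of 130. The plastid dnaJ 11 (Cluster-31613.0) had 212, 206 and 196 FPKM in F2 leaves, against 30.3, 34.5 and 29.5 in F1 leaves (log2 fold change 2.75 ± 0.08, adjusted p = 5.12e-08). Heat shock cognate 70 kDa protein 2 of the cytosol (Cluster-53127.3) had 93.5 ± 3.92 FPKM in F2 leaves and 241 ± 11.1 in F1 leaves (log2 fold change -1.32 ± 0.05, adjusted p = 1.4e-07). Glutathione S-transferases, which attach glutathione to toxins, fell in 15 of 45 and rose in 4. A PARB cluster (Cluster-53361.1) had 1.72, 2.73 and 3.14 FPKM in F2 leaves, against 268, 275 and 262 in F1 leaves (log2 fold change -6.79 ± 0.20, adjusted p = 4.61e-08). A cluster of the same number (Cluster-53361.2) rose, with 61.0 ± 1.21 FPKM in F2 leaves and 9.44 ± 0.98 in F1 leaves (log2 fold change 2.74 ± 0.14, adjusted p = 8.87e-07), while the number as a whole summed to 69.1 FPKM in F2 leaves and 438 in F1 leaves. Thioredoxin H2 of the cytosol (Cluster-36851.1) fell, with 23.6 ± 2.98 FPKM in F2 leaves and 96.4 ± 18.3 in F1 leaves (log2 fold change -2.02 ± 0.17, adjusted p = 1.98e-05).

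Aquaporins, the water channels that expanding cells use, fell in 15 of 28 clusters and rose in 1, and summed to 1744 to 1815 FPKM in F2 leaves, against 2859 to 3146 in F1 leaves. PIP1-3 of the plasma membrane (Cluster-42421.5) had 292, 316 and 301 FPKM in F2 leaves, against 682, 682 and 652 in F1 leaves (log2 fold change -1.10 ± 0.06, adjusted p = 1.66e-06). The only aquaporin cluster that rose shares its number with this PIP1-3 cluster, so clusters of that number moved in opposite directions. A TIP-type channel of the vacuole (Cluster-38802.1) had 66.7 ± 1.28 FPKM in F2 leaves and 207 ± 6.21 in F1 leaves (log2 fold change -1.58 ± 0.08, adjusted p = 9.88e-07). ABC transporters of subfamily C, which load conjugates into the vacuole, rose in 21 of 46 and fell in 2. ABCC3 (Cluster-17327.22) had 45.0, 46.0 and 50.3 FPKM in F2 leaves, against 18.8, 16.9 and 18.4 in F1 leaves (log2 fold change 1.44 ± 0.08, adjusted p = 1.66e-06), and its 16 clusters summed to 258 FPKM in F2 leaves and 117 in F1 leaves. In subfamily G, several members of which export cuticle lipids, 12 rose and 15 fell of 61, a balance that turned to 14 and 13 without F1 replicate 1 and to 15 and 13 without F1 replicate 3. ABCG22, a transporter of guard cells in Arabidopsis (Cluster-53748.3), had 7.01 ± 0.688 FPKM in F2 leaves and 33.9 ± 3.07 in F1 leaves (log2 fold change -2.23 ± 0.09, adjusted p = 1.55e-07). The efflux protein DETOXIFICATION 27 (Cluster-53669.6) rose, with 154 ± 3.44 FPKM in F2 leaves and 55.3 ± 3.55 in F1 leaves (log2 fold change 1.40 ± 0.07, adjusted p = 1.04e-06). Heavy metal-associated isoprenylated proteins fell in 15 of 44 and rose in 3, and HIPP7 (Cluster-52652.0) had 13.2 ± 1.13 FPKM in F2 leaves and 98.7 ± 3.80 in F1 leaves (log2 fold change -2.86 ± 0.15, adjusted p = 7.82e-07).

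Among light and clock genes, 28 rose and 21 fell of 109, which RLE scaling turned to 21 and 22. The blue light receptor cryptochrome-1 (Cluster-39927.1) had 89.1 ± 2.64 FPKM in F2 leaves and 45.3 ± 2.97 in F1 leaves (log2 fold change 1.02 ± 0.05, adjusted p = 6.4e-07). CONSTANS-like 6 (Cluster-35017.0) had 71.6, 70.6 and 71.8 FPKM in F2 leaves, against 24.8, 25.4 and 26.0 in F1 leaves (log2 fold change 1.53 ± 0.08, adjusted p = 9.74e-07). Of RNA processing genes, the spliceosome counted 67 higher and 36 lower of 309, and nucleocytoplasmic transport 44 higher and 15 lower of 152. The spliceosome was nearly even under RLE scaling, with 54 higher and 50 lower, and under DESeq2, with 56 higher and 54 lower. With limma on log2(FPKM + 1) it turned to 23 higher and 32 lower. The abundant hnRNP 1, which binds new RNA (Cluster-39150.0), had 85.8 ± 1.19 FPKM in F2 leaves and 42.4 ± 1.11 in F1 leaves (log2 fold change 1.06 ± 0.06, adjusted p = 8.33e-07).

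Retroelement proteins, the coat and copying proteins of mobile DNA, rose in 133 of 328 clusters and fell in 20, with a median log2 fold change of 1.05. They summed to 914 to 986 FPKM in F2 leaves, against 420.2 to 639 in F1 leaves. The most abundant, a reverse transcriptase homolog (Cluster-10432.115), had 79.9, 84.6 and 67.6 FPKM in F2 leaves, against 41.1, 28.0 and 28.1 in F1 leaves (log2 fold change 1.42 ± 0.17, adjusted p = 0.000156). Under RLE scaling 101 rose and 22 fell, and with limma on log2(FPKM + 1) 40 rose and 12 fell. Without F1 replicate 2, which had the lowest sum of the F1 libraries, 88 rose and 19 fell. Clusters with no named match leaned the same way. Of the 5160 clusters with no match in Swiss-Prot, NR or KEGG, 1672 were higher in F2 leaves (32.4%) and 569 lower. Their median log2 fold change was 0.76 and their median length 1031 bases, against 1727 bases over all clusters.

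Clusters of a number often disagreed. Of 3629 numbers with more than 1 cluster, 2502 had at least 1 call, and 557 of these had calls in both directions. In all, 1174 clusters were at 0 counts in every F1 library, of which 785 were called higher, and 662 were at 0 counts in every F2 library, of which 344 were called lower. Thiamine thiazole synthase 2, which makes the thiazole ring of vitamin B1, gave such a pair: Cluster-48091.1 rose, with 3.93 ± 0.619 FPKM in F2 leaves and 1.13 ± 0.0416 in F1 leaves (log2 fold change 1.85 ± 0.14, adjusted p = 8.58e-06), and Cluster-48091.5 fell, with 95.7, 96.9 and 115 FPKM in F2 leaves, against 387, 384 and 362 in F1 leaves (log2 fold change -1.84 ± 0.08, adjusted p = 2.86e-07). Its 7 clusters summed to 246 FPKM in F2 leaves and 508 in F1 leaves. IAA16 gave another, with 47.6, 42.7 and 47.5 FPKM in F2 leaves, against 0 counts in every F1 library in Cluster-35610.4 (adjusted p = 1.15e-07) and 86.9 ± 4.93 FPKM in F2 leaves and 216 ± 17.8 in F1 leaves in Cluster-35610.10 (log2 fold change -1.27 ± 0.09, adjusted p = 6.37e-06), and a sum of 147 FPKM in F2 leaves and 231 in F1 leaves. Single clusters of such numbers are uncertain, as reads can be divided among them.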

How the data were processed

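Each library is mRNA sequencing of a leaf sample, and its stage and replicate number were taken from the labels. The authors deposited a table of transcript clusters with fragment counts per library, which are raw whole numbers, and with FPKM, the counts scaled by the authors for transcript length and library size. Further columns annotate clusters by Swiss-Prot, NR, KEGG and transcription factor family. The authors' DESeq2 columns of fold change, p-value and regulation were not used. The table holds only clusters that the authors called in some stage comparison; the fit made here called 22821 of 24385 in at least 1 of the 3 comparisons. For assembly, alignment and counting, the tools were not given in the sources used here. Kits named in the labels are not those of the study's methods, and the builds named are of the mouse genome, which is another species.

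With edgeR 4.0.16 in R 4.3.3, a quasi-likelihood model with TMM scaling over all clusters and no filter was fitted to the counts of all 9 libraries, with stage as its factor. A call needs an adjusted p under 0.05 over all clusters and a fold of at least 2. The fit was tested on simulated data. Libraries of a stage differed by more than counting noise, with a chi-square per degree of freedom of 5.8 to 12.6, so none was merged. The members of gene classes were matched by the annotation text. In each class and direction the text names up to 2 called clusters of highest mean FPKM with no overlap between stages, 1 per cluster number, and in each transcription factor family 1. The members and lists were chosen with earlier results of these data known. Where a stage had 0 counts, the fold is a lower bound set by 3 counts per library. Other settings tried as alternatives were RLE scaling, DESeq2 1.42.0, library sizes implied by FPKM, a minimum of 1 FPKM, limma 3.58.1 on log2(FPKM + 1) and log2(FPKM + 0.1), the stages F1 and F2 alone, a block of replicate numbers, calls without the fold threshold, clusters of a number summed, and each library left out. Metabolite and qRT-PCR values were not used. Python 3.11.15 with pandas 2.3.3 and matplotlib 3.10.9 did the remaining steps.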

Additional observations from a re-analysis of the deposited data

How the results depend on the processing

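The call count of 9955 depended most on how levels were put on a log scale and how clusters were joined. With limma on log2(FPKM + 1), 5928 clusters were called, 2426 of them higher and 3502 lower, a scale on which low clusters change little. With clusters of a number summed, 6330 of 14454 units were called, 3262 higher and 3068 lower. Leaving out 1 library gave 8305 to 9429 calls, with 4286 to 5105 higher and 4019 to 4376 lower, lowest without F1 replicate 2. Deviations of F2 and F1 libraries with the same replicate number correlated at -0.007 to 0.019, and those with different numbers at -0.032 to 0.012. Whether replicate numbers pair the libraries cannot be decided from these values, as the tree of each library is not given. With the replicate block, 8981 clusters were called, 4732 higher and 4249 lower. The share of calls that were higher was 53.9%, and 44.9% with RLE scaling, 45.2% with DESeq2, 46.3% among clusters with at least 1 FPKM and 40.9% with limma on log2(FPKM + 1). With clusters of a number summed, the balance turned to 1 higher and 2 lower for ethylene genes, 14 and 13 for chaperones, 1 and 2 for metallothioneins and 77 and 79 for plant-pathogen interaction, and auxin response factors counted 1 each. The cause of these turns was not tested.

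Of 176 named clusters, 151 kept their side of the threshold and direction under every alternative other than the sum over a number, and 11 changed side without some library. Summed over their number, 17 kept their direction but lost their call, 1 gained a call and 7 turned their direction. The log2 fold changes of these 7 were then -1.05 for the MAH1 cluster that rose, 0.71 for the antenna cluster Cluster-33836.3, 0.12 for beta-carotene hydroxylase 2, -0.30 for the L10 cluster that rose, -2.29 for the glutathione S-transferase cluster that rose, -0.94 for thiazole synthase Cluster-48091.1 and -0.42 for IAA16 Cluster-35610.4. Reads divided among clusters of a number could not be reassigned here. With 3 libraries per stage, clusters of low level that were not called can still differ.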

Other observations

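Genes of iron handling, chosen after their values were seen, changed in both directions. Of 3 ferritin clusters, 1 rose and 1 fell. Ferritin-3, which stores iron in plastids (Cluster-51621.0), had 569, 589 and 569 FPKM in F2 leaves, against 229, 248 and 214 in F1 leaves (log2 fold change 1.37 ± 0.07, adjusted p = 7.6e-07). Of 8 clusters of ferric reduction oxidases, which reduce iron at membranes, 4 rose and 0 fell in edgeR's quasi-likelihood test, and the chloroplast form FRO7 (Cluster-54708.2) had 412, 421 and 403 FPKM in F2 leaves, against 198, 194 and 206 in F1 leaves (log2 fold change 1.09 ± 0.04, adjusted p = 8.42e-08). Metal-nicotianamine transporters, which move chelated iron, rose in 11 of 15 clusters and fell in 0, among them YSL3 (Cluster-49105.0) with 21.1 ± 1.72 FPKM in F2 leaves and 6.90 ± 0.921 in F1 leaves (log2 fold change 1.66 ± 0.10, adjusted p = 2.56e-06). Anamorsin, an assembly factor of cytosolic iron-sulfur clusters, fell in 11 of 12 clusters and rose in 0. Its leading cluster (Cluster-56260.6) had 2.63, 3.11 and 3.33 FPKM in F2 leaves, against 82.9, 83.7 and 79.3 in F1 leaves (log2 fold change -4.73 ± 0.17, adjusted p = 9.89e-08), and the 11 clusters of its number summed to 10.3 FPKM in F2 leaves and 231 in F1 leaves. BRUTUS, which restrains the iron deficiency response in Arabidopsis, fell in 8 of 11 clusters and rose in 0, led by Cluster-24568.4 with 13.3 ± 0.284 FPKM in F2 leaves and 40.5 ± 1.62 in F1 leaves (log2 fold change -1.47 ± 0.05, adjusted p = 1.06e-07). The zinc transporter ZIP11 (Cluster-53721.1) rose, with 55.7, 54.2 and 52.1 FPKM in F2 leaves, against 10.4, 10.4 and 8.43 in F1 leaves (log2 fold change 2.51 ± 0.10, adjusted p = 1.76e-07).

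Peptidases outside the protease classes, also chosen after their values were seen, leaned higher. Aminopeptidase M1, which trims peptides and is known from auxin transport in Arabidopsis, rose in 11 of 15 clusters and fell in 0, with a median log2 fold change of 2.93. The acylamino-acid-releasing enzyme, which removes blocked first residues from peptides, rose in 10 of 18 and fell in 1. Clusters of these names share 6 and 2 numbers and are not independent of each other. Of 14 lipoxygenase clusters of linoleate, on 4 numbers, 10 rose and 0 fell. A proline-rich wall protein, PRP4 (Cluster-46044.3) was the reverse case, with 7.33, 8.64 and 5.05 FPKM in F2 leaves, against 314, 254 and 331 in F1 leaves (log2 fold change -5.36 ± 0.38, adjusted p = 5.51e-06).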
